A study of Mus musculus with 9 samples.

Results

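The genes described here encode the nuclear subunits of the mitochondrial oxidative phosphorylation system in mouse lung. They were chosen by symbol alone: every gene whose symbol starts with Nduf, Uqcr or Atp5 or with Cox4, Cox5, Cox6, Cox7 or Cox8, together with Sdha, Sdhb, Sdhc, Sdhd, Cycs and Cyc1, with pseudogenes left out. A RefSeq gene table held 98 protein-coding symbols of this kind, and 94 of them were matched to an array probe, among 19698 named genes measured. The 94 genes comprised 36 genes of complex I, 8 assembly factors of complex I that share the Nduf symbol, 4 genes of complex II, 9 of complex III, cytochrome c, 20 of complex IV and 16 of complex V. The symbols Atp5g1, Ndufb1, Ndufb4b and Ndufb4c were not matched. All 94 genes passed the filter on low signals, so the filter removed none of them. On all 9 arrays 92 of them were well above background, and the remaining 2, Cox7b2 and Cox8c, were well above background on none.

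Oxidative phosphorylation is the main source of ATP in most cells of the lung. Complexes I and II pass electrons from NADH and succinate to ubiquinone, and complex III passes them on to cytochrome c. Complex IV (cytochrome c oxidase) reduces oxygen to water. To make ATP, complex V (ATP synthase) uses the proton gradient that complexes I, III and IV build. Most subunits are nuclear genes, a few are encoded in mitochondrial DNA, and complex IV has subunits that exist as a ubiquitous and a tissue-restricted isoform, among them isoforms of heart and skeletal muscle.

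The RNA came from lungs of male C57BL/6 mice, whose age is given as 10 weeks, and was hybridized to 9 single-color Agilent arrays. Tissue was taken at several times after irradiation, so this need not be the age at collection. According to their labels 4 arrays were control lung and 5 were irradiated left lung tissue, which had received a single radiation dose under anesthesia. The methods describe more than 1 dose, lung region and time after irradiation, and the labels used here do not assign them to arrays, so all of these may vary among the 5 irradiated arrays and add to their spread. The methods state that RNA of 3 mice was pooled for each time point, so p-values measure the spread between pools on these arrays and not between animals. The comparison asks whether the transcripts of the respiratory chain differed after irradiation. In whole tissue, fewer cells of a type and less RNA per cell cannot be told apart.

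Between 72.8% and 89.1% of the spots of an array were well above background, no spot was saturated, and the correlation between arrays across probes was between 0.975 and 0.990. The labelled tissue was borne out by its markers: Sftpc, which encodes surfactant protein C of type II alveolar cells, lay between 19.36 and 19.43 (log2 intensity) on the 9 arrays. RNA of other tissues varied between arrays. Genes of cardiac muscle were low on irradiated array 1, genes of skeletal muscle were high on control array 3 and genes of fat were low on several irradiated arrays. Their values are given beside the isoforms of complex IV, where they bear on the result. In features of their scan (lowest spot position, local background and share of spots over the background) 4 pairs of a control and an irradiated array lay close to each other: control array 1 with irradiated array 2, control 2 with irradiated 3, control 3 with irradiated 4 and control 4 with irradiated 5. Irradiated array 1 was in no pair. The files do not say that the arrays of a pair were scanned together.

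Promoters are shown first, to give motifs that were found in a minority of these genes. RefSeq promoter windows (mouse assembly GRCm38.p6, 300 bases around a transcript start, most of them upstream) were found for 76 of the 94 genes, in 81 windows. The motif of nuclear respiratory factor 1, a regulator of genes for mitochondrial proteins, was searched on both strands, as were the others below. It was found in 24.7% of the 81 windows, against 4.6% of all 32851 windows of the table. The motif CCGGAAG of ETS factors such as GABPA stood in 23.5% against 8.86%, AAGATGGCG of YY1 in 9.88% against 1.4%, TCAAGGTCA of the oestrogen-related receptors in 2.47% against 0.423%, and the motif of MEF2, a muscle factor, in 2.47% against 3.69%. None of these motifs contains another. A match gives the letters only and was not tested as a binding site. The 4 stretches below, from complexes I, II and V, show the nuclear respiratory factor 1 motif in capitals, read in the direction of the gene.

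Ndufs5 (complex I, chr4:123718260-123718299, minus strand): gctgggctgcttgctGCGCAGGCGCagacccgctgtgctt
Sdha (complex II, chr13:74350314-74350353, minus strand): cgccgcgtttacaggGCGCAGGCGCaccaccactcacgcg
Sdhd (complex II, chr9:50603904-50603943, minus strand): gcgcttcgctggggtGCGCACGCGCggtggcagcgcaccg
Atp5h (complex V, chr11:115420036-115420075, minus strand): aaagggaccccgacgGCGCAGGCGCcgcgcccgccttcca

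For complex IV, a stretch of 100 bases is shown for a ubiquitous and for 2 muscle isoforms, since the isoforms of this complex are set against each other in the array data. In Cox6a1, the ubiquitous isoform of subunit VIa, the capitals mark 2 positions of the nuclear respiratory factor 1 motif, and the stretch lies upstream of the start. In Cox8b, the muscle isoform of subunit VIII, and Cox7a1, the muscle isoform of subunit VIIa, the stretch is the last 100 bases before the start. The capitals in Cox8b mark CAGCTG, an E-box of the kind bound by myogenic factors and the same on both strands. It was searched after the values of the isoforms had been seen and is present in 7.41% of the 81 windows and 16.3% of all windows. No position of CAGCTG or of the nuclear respiratory factor 1 motif was found in the window of Cox7a1. The latter motif was not found in the windows of Cox8b, or of the ubiquitous Cox8a and Cox7a2.

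Cox6a1 (ubiquitous, chr5:115349034-115349133, minus strand): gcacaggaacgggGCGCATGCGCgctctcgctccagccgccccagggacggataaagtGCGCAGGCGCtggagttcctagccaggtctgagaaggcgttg
Cox8b (muscle, chr7:140900447-140900546, minus strand): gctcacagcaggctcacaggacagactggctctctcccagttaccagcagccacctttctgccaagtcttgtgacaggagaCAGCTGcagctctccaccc
Cox7a1 (muscle, chr7:30184071-30184170, plus strand): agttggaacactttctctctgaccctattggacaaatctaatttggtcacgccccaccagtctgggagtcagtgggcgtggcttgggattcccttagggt

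None of the 94 genes passed the test between irradiated and control arrays. By limma with Benjamini-Hochberg adjustment over all probes, 0 of 94 were higher and 0 of 94 were lower, where 0.264% of all 19698 genes were higher and 0.152% were lower. The lowest adjusted p of a member was 0.525. No member differed by at least 2-fold in either direction, against 1.7% of all genes higher and 1.65% lower. At an unadjusted p under 0.05, 0 of 94 members were higher and 0 lower, against 7.37% and 4.98% of all genes. Without irradiated array 1 the count was also 0 in each direction, where 1.09% of all genes were higher and 0.569% lower, and at an unadjusted p under 0.05 it was again 0 and 0, against 7.7% and 5.82% of all genes.

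The estimates were also close to 0, and their intervals were narrow. The difference of 87 of the 94 genes (92.6%) lay within 0.2 on the log2 scale, which was the case for 58.7% of all genes. The 95% interval of the difference lay within 1.5-fold either way for 86 of the 94 genes (91.5%), against 50.9% of all genes, and within 2-fold either way for 90 (95.7%), against 78.8%. The median half-width of the intervals was 0.21 for the members and 0.40 for all genes. These shares depend on the noise of the probes, which was lower for the members. Their median SD among the controls was 0.15 against 0.25 for all genes, and their median SE 0.10 against 0.18. No genes of like noise are set beside them, so the shares do not show that these genes were unusually stable. The median difference of the 94 genes was 0.02, and that of all genes was 0.01. The difference was above 0 for 57 members (60.6%) and for 51.9% of all genes. The 7 genes outside 0.2 were Ndufab1 of complex I and, in complex IV, the muscle isoforms Cox8b, Cox7a1 and Cox6a2 with the testis isoforms Cox6b2, Cox7b2 and Cox8c, of which Cox7b2 and Cox8c, at background level, stand in these counts without a direction.

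**Figure D1:**
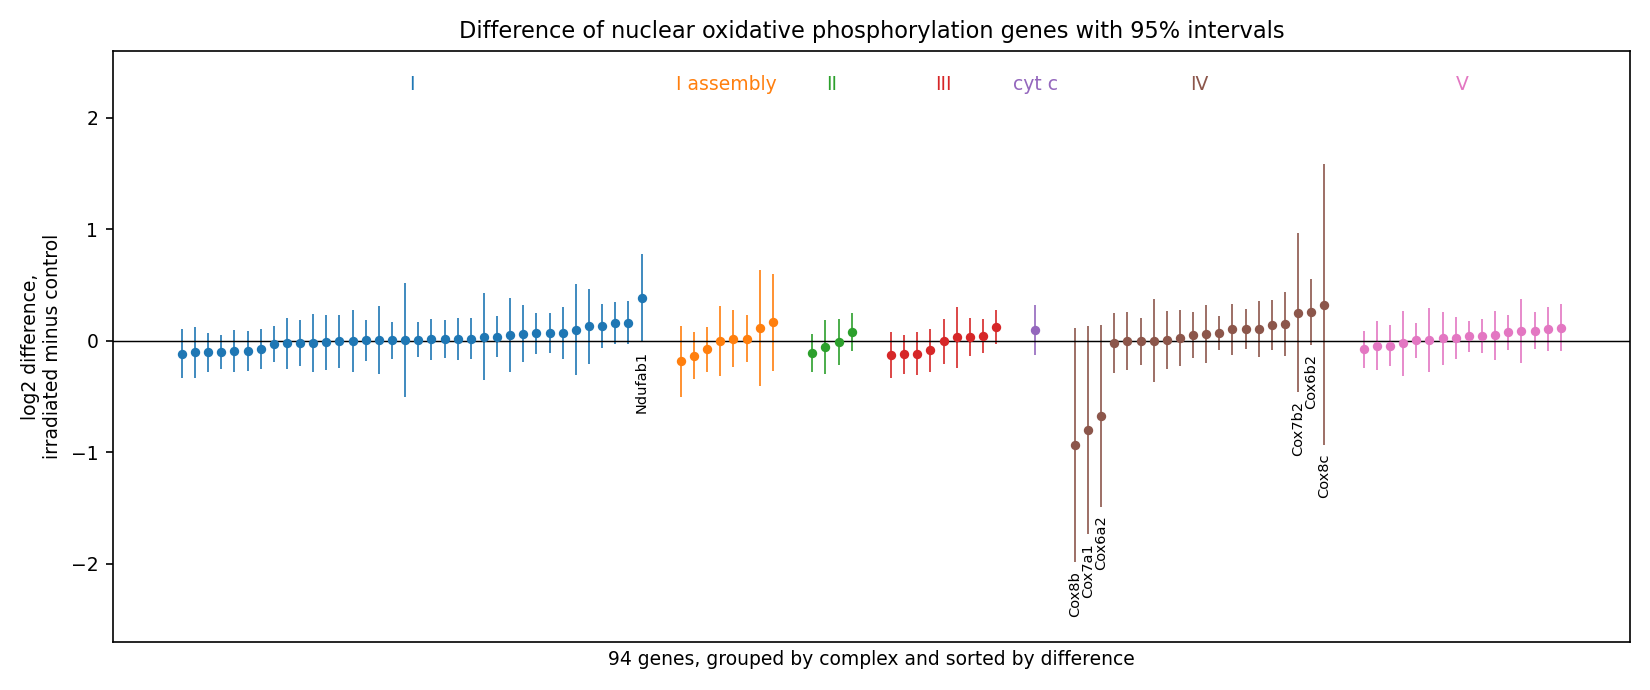
Log2 difference between irradiated (n = 5) and control (n = 4) arrays for each of the 94 genes, with its 95% interval from limma, grouped by complex and sorted. The 7 genes beyond 0.2 are named, 87 genes lie within 0.2, and the 3 lowest are Cox8b, Cox7a1 and Cox6a2 of complex IV.

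The median of each complex on each array, as a log2 difference from the control mean, overlapped between the groups. The median of complex I was 0.06, 0.00, -0.10 and 0.04 on control arrays 1 to 4 and 0.07, 0.00, 0.07, -0.11 and 0.04 on irradiated arrays 1 to 5. The median of complex IV was 0.07, 0.05, -0.04 and 0.03 on the control arrays and 0.04, 0.16, 0.14, -0.06 and -0.01 on the irradiated arrays. The median of complex V was 0.05, 0.01, -0.01 and 0.00 on the control arrays and 0.05, 0.04, 0.09, 0.04 and 0.01 on the irradiated arrays. The median of complex III was 0.00, -0.01, 0.00 and -0.03 on the control arrays and -0.03, -0.06, 0.03, -0.06 and -0.04 on the irradiated arrays. By these values 4 of the 5 irradiated arrays lay just below every control and irradiated array 3 above them. Against the mean of the other controls, however, control array 4 was at -0.0348, level with irradiated array 1 at -0.0345. In complex I, control array 3 and irradiated array 4, which form a scan pair, were the lowest of their groups.

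**Figure D2:**
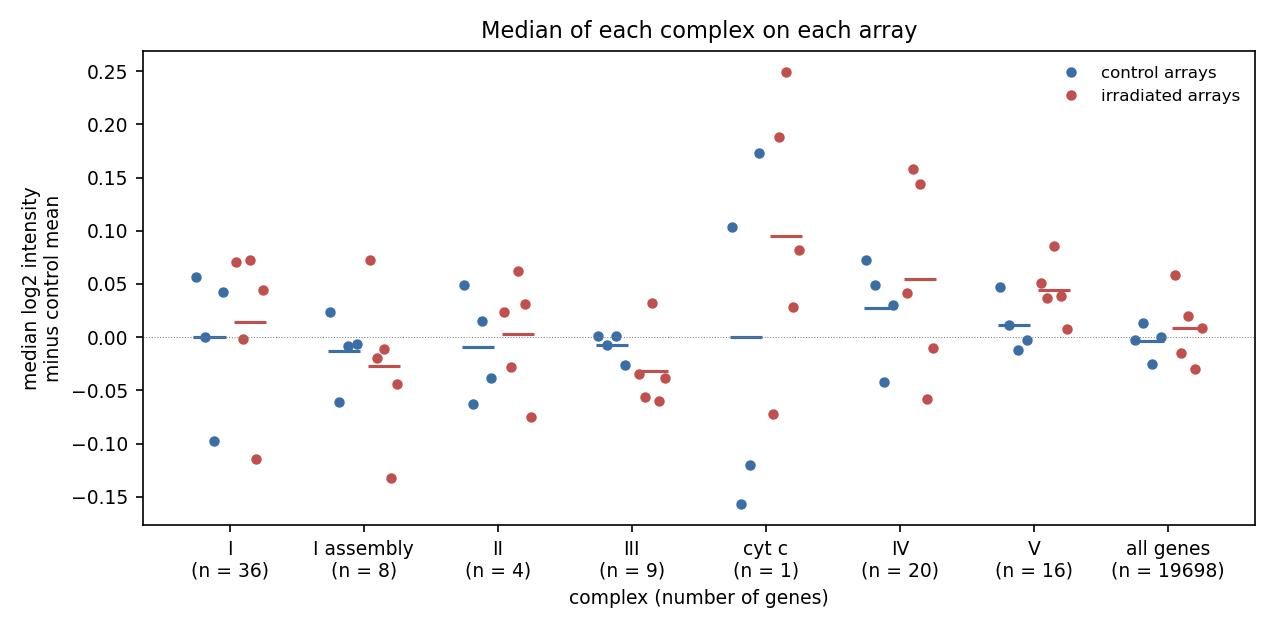
Median over the genes of a complex of the log2 intensity minus the gene's mean on the control arrays, for each of 4 control and 5 irradiated arrays. Horizontal lines are the means of the points of a group. The groups overlap in each complex, and the widest scatter is that of cytochrome c, a single gene.

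In complex I, which oxidizes NADH, 22 of 36 genes were above 0 and 14 below, with a median of 0.01 and a range from -0.12 (Ndufs7) to 0.38 (Ndufab1). The nuclear core subunits, such as Ndufs1 and Ndufv1, carry out electron transfer, and their median difference was -0.09, with 5 of 7 below 0. Ndufs1, the largest subunit, was 14.04, 14.03, 13.88 and 14.19 (log2 intensity) on control arrays 1 to 4 and 13.83, 14.03, 13.98, 13.86 and 14.01 on irradiated arrays 1 to 5. Its groups overlapped, and the difference was -0.09 (SE 0.08, adjusted p = 0.814). Ndufv1, the subunit that binds NADH, differed by -0.09 (SE 0.08, adjusted p = 0.812). Ndufa13, a supernumerary subunit, differed by 0.16 (SE 0.08, adjusted p = 0.608). The 13 Ndufa genes of the complex had a median of 0.01 and the 10 Ndufb genes of the membrane arm a median of 0.00.

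Ndufab1 had the highest estimate of the 94 genes, and it was singled out after its values were seen. It encodes the mitochondrial acyl carrier protein, which is a subunit of complex I and also serves mitochondrial fatty acid synthesis. Its values were 9.69, 9.67, 8.996 and 9.60 on the control arrays and 10.01, 10.06, 9.98, 9.49 and 9.82 on the irradiated arrays. Irradiated array 4 lay among the controls, and the other 4 irradiated arrays lay above every control. The difference was 0.38 (SE 0.18, adjusted p = 0.525), with an interval from -0.01 to 0.78. Ndufab1 was higher on the irradiated array in all 4 scan pairs, by 0.37, 0.30, 0.49 and 0.23. With scan pairs as a fixed block its difference was 0.35 (adjusted p = 0.0775), and with scan pairs as a random block it was 0.36 (adjusted p = 0.0618), which were the lowest adjusted p-values of any member in these fits.

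A few genes of complex I varied widely among the control arrays. Of the 11 members with an SD over 0.3 among the 4 controls, 6 belonged to complex I, which has 36 of the 94 members, and the median SD of its genes among the controls was 0.13, against 0.15 for all members. Ndufa10, an accessory subunit, was 12.42, 11.57, 11.63 and 12.40 on the control arrays and 12.15, 12.31, 11.96, 11.49 and 12.15 on the irradiated arrays. The core subunit Ndufs8, named after its values were seen, was also low on control array 2, at 11.82, against 12.79 on control array 1. Its SD was 0.11 among the irradiated arrays and 0.45 among the controls. Control array 2 was the lowest of the 9 arrays for 24 of the 94 members, against 3099 of all 19698 genes.

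The assembly factors build complex I and are not part of the finished enzyme. Their median difference was 0.01, with 4 of 8 above 0 and a range from -0.18 (Ndufaf7) to 0.16 (Ndufaf4). Ndufaf7, a methyltransferase, was 12.37, 12.51, 12.11 and 12.61 on the control arrays and 12.51, 12.25, 12.21, 11.85 and 12.29 on the irradiated arrays. The groups overlapped (difference -0.18, SE 0.14, adjusted p = 0.771). Ndufaf5, which hydroxylates Ndufs7, was 9.23 on irradiated array 1 and between 8.0 and 8.58 on the other 8 arrays (difference 0.11, SE 0.23, adjusted p = 0.947), and its difference without irradiated array 1 was -0.07.

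Complex II, which is also the succinate dehydrogenase of the citric acid cycle, had differences from -0.11 to 0.08 in its 4 genes. Sdha, the flavoprotein that oxidizes succinate, was 14.21, 14.14, 14.27 and 14.34 on the control arrays and 14.27, 14.02, 14.05, 14.18 and 14.14 on the irradiated arrays. Its groups overlapped at a difference of -0.11 (SE 0.08, adjusted p = 0.742). Sdhb, the iron-sulfur subunit, differed by -0.01 (SE 0.09), Sdhc, a membrane anchor, by -0.05 (SE 0.11), and Sdhd, the other anchor, by 0.08 (SE 0.08).

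Complex III held the only member whose groups did not overlap. Uqcrq, a small supernumerary subunit, was 15.70, 15.69, 15.70 and 15.70 on the control arrays and 15.83, 15.75, 15.81, 15.96 and 15.77 on the irradiated arrays. All 5 irradiated arrays lay above the 4 controls, at a difference of 0.13 (SE 0.07, adjusted p = 0.607). Higher groups without overlap were seen for 1 of the 94 members and for 3.4% of all genes, and lower groups without overlap for 0 members and 1.76% of all genes. The other probe of Uqcrq differed by 0.10, and its groups overlapped. The catalytic subunits were on the other side of 0: Uqcrfs1, the Rieske iron-sulfur protein, differed by -0.13 (SE 0.09, adjusted p = 0.734) and Cyc1, cytochrome c1, by -0.12 (SE 0.09, adjusted p = 0.748). Uqcrh, the hinge protein, differed by 0.03 (SE 0.12). The median of complex III was -0.01.

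Cycs, the somatic cytochrome c that carries electrons from complex III to complex IV and acts in apoptosis when released, was 14.51, 14.25, 14.29 and 14.58 on the control arrays and 14.34, 14.60, 14.66, 14.44 and 14.49 on the irradiated arrays. The groups overlapped, and the difference was 0.10 (SE 0.10, adjusted p = 0.849). Its 3 probes differed by 0.10 to 0.17.

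In complex V, 12 of 16 genes were above 0, with a median of 0.03 and a range from -0.08 (Atp5j) to 0.12 (Atp5md), so that all 16 lay within 0.2. Atp5b, the catalytic beta subunit, was 16.80, 16.42, 16.71 and 16.73 on the control arrays and 16.49, 16.91, 16.67, 16.68 and 16.70 on the irradiated arrays. Control array 2 and irradiated array 1 were the low ones, and the difference was 0.02 (SE 0.11, adjusted p = 0.986). Atp5c1, the gamma subunit of the rotor, differed by 0.05 (SE 0.10), and Atp5pb, the b subunit of the stalk, by 0.09 (SE 0.13).

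Complex IV held the widest range, from -0.94 (Cox8b) to 0.26 (Cox6b2) among its genes above background, with a median of 0.06 and 13 of all 20 genes above 0, Cox7b2 and Cox8c included. The nuclear subunits that every tissue uses were close to 0: Cox4i1 differed by -0.02 (SE 0.12) and Cox5a by 0.11 (SE 0.11). Without control array 3 these differences were -0.10 and 0.003, and without control array 2 they were 0.004 and 0.16. Cox4i2, the isoform of subunit IV that is typical of lung, was 12.09, 11.92, 12.03 and 11.96 on the control arrays and 11.94, 12.32, 12.26, 11.99 and 12.01 on the irradiated arrays. Its groups overlapped at a difference of 0.10 (SE 0.10, adjusted p = 0.836). Ndufa4, first assigned to complex I and now known as a subunit of complex IV, differed by 0.00 (SE 0.17), and its hypoxia-responsive relative Ndufa4l2 by 0.05 (SE 0.09). Cox6b2, an isoform best known from testis, lay from 11.27 to 11.41 in the controls and from 11.30 to 11.96 in the irradiated group, with irradiated arrays 1, 2, 3 and 5 above all controls (difference 0.26, SE 0.13, adjusted p = 0.576, and 0.17 without irradiated array 1). The other testis isoforms, Cox7b2 and Cox8c, were not well above background on any array, and their differences are not read as a change.

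The muscle isoforms of complex IV had the lowest estimates of all 94 genes, and none of the 3 passed the test. Cox8b was 13.69, 12.75, 12.86 and 13.15 on the control arrays and 10.51, 13.29, 12.68, 12.31 and 12.08 on the irradiated arrays, and 4 of the 5 irradiated arrays lay below all controls. Cox7a1 was 13.25, 13.46, 12.43 and 13.41 on the control arrays and 11.01, 13.06, 13.20, 12.09 and 12.31 on the irradiated arrays. Cox6a2, the muscle isoform of subunit VIa, was 14.04, 14.68, 14.01 and 14.65 on the control arrays and 12.38, 13.74, 14.52, 13.90 and 13.82 on the irradiated arrays. For all 3 genes irradiated array 1 was the lowest of the 9 arrays, and the groups overlapped.

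The difference between groups was -0.94 (SE 0.47, adjusted p = 0.569) for Cox8b, -0.80 (SE 0.42, adjusted p = 0.591) for Cox7a1 and -0.67 (SE 0.37, adjusted p = 0.608) for Cox6a2, with intervals that reached from -1.99 to 0.12, from -1.73 to 0.13 and from -1.49 to 0.14. Irradiated array 1 was 6.06-fold lower than the mean of the controls for Cox8b, 4.37-fold for Cox7a1 and 3.9-fold for Cox6a2. Without it the differences were -0.52, -0.47 and -0.35. The ubiquitous counterparts lay on the other side of 0. Cox8a differed by 0.11 (SE 0.08), Cox7a2 by 0.07 (SE 0.07) and Cox6a1 by 0.15 (SE 0.13). Without control array 2 the differences of Cox7a2 and Cox6a1 were 0.03 and 0.03. On irradiated array 1, the members at least 2-fold from the control mean were Cox6a2, Cox7a1, Cox8b and Cox8c (the last not well above background), which is 4.26% of the 94 genes, against 8.13% of all genes on that array. On irradiated arrays 2 and 3 no member was that far from the control mean, on irradiated array 4 it was Cox7a1 and on irradiated array 5 it was Cox8b, against 5.98% to 7.17% of all genes.

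**Figure D3:**
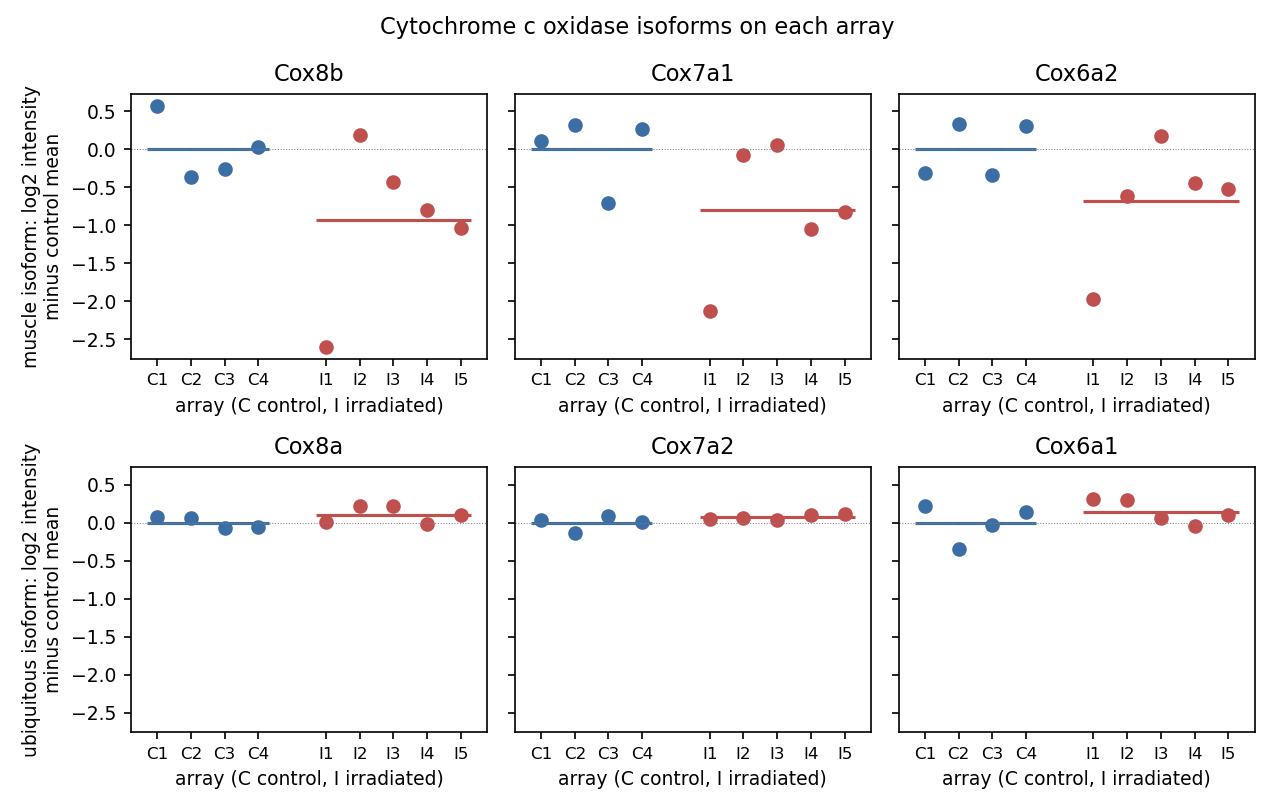
Log2 intensity minus the mean of the control arrays for 3 muscle isoforms (top) and 3 ubiquitous isoforms (bottom) of complex IV subunits on each array, with lines at the group means. Irradiated array 1 is the lowest point of Cox8b, Cox7a1 and Cox6a2, and the ubiquitous isoforms are not low on that array.

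With scan pairs as a fixed block, 0 of the 94 members passed in either direction, where 2.28% of all genes were higher and 1.56% lower. At an unadjusted p under 0.05, 4 members were higher and 6 lower in that fit, against 13.3% and 11.4% of all genes. With scan pairs as a random block 0 members passed, where 5.65% of all genes were higher and 3.8% lower, and at an unadjusted p under 0.05 there were 6 higher and 3 lower, against 14.7% and 11.9%.

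Each of the 3 muscle isoforms was lower on the irradiated array in all 4 scan pairs. The 3 genes were measured on the same 4 pairs, so their values are not separate replicates. They also had the lowest estimates of all members in a comparison that includes these arrays, so their signs here are not independent of that. The share of all genes below 0 in all 4 pairs is not given. The difference in the pairs of control arrays 1 to 4 was -0.39, -0.07, -0.55 and -1.07 for Cox8b, -0.18, -0.26, -0.34 and -1.09 for Cox7a1, and -0.30, -0.17, -0.11 and -0.83 for Cox6a2. The pair of control array 4 and irradiated array 5 had the largest difference for all 3. With scan pairs as a fixed block the adjusted p was 0.164 for Cox8b, 0.199 for Cox7a1 and 0.223 for Cox6a2, and irradiated array 1 has no part in that estimate.

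The change of a tissue-restricted isoform relative to its counterpart on the same array was tested for 5 isoform pairs by an exact two-sided permutation test over arrays. The difference of Cox8b minus Cox8a was shifted between the groups by -1.04 (exact p = 0.0556, adjusted over the 5 pairs 0.238), that of Cox7a1 minus Cox7a2 by -0.87 (exact p = 0.119, adjusted 0.238) and that of Cox6a2 minus Cox6a1 by -0.82 (exact p = 0.143, adjusted 0.238). Without irradiated array 1 these shifts were -0.65, -0.55 and -0.46. The smallest p this design can give with all 9 arrays is 0.00794. Cox8b minus Cox8a was below all controls on 4 of the 5 irradiated arrays and inside their range on irradiated array 2. The isoform pairs outside muscle were shifted by less: Cox4i2 minus Cox4i1 by 0.12 (exact p = 0.492) and Ndufa4l2 minus Ndufa4 by 0.05 (exact p = 0.825). None of the 5 passed after adjustment. This test takes the 9 arrays as exchangeable and leaves the scan pairs out of account. Within the 4 scan pairs the shift was -0.54, -0.23, -0.60 and -1.23 for Cox8b minus Cox8a, -0.20, -0.43, -0.36 and -1.19 for Cox7a1 minus Cox7a2 and -0.37, -0.58, -0.09 and -0.79 for Cox6a2 minus Cox6a1. It was below 0 in all 4 pairs for each, and an exact two-sided test over 4 pairs cannot go below 0.125.

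Markers of cardiac muscle and of fat were low on some arrays where the muscle isoforms were low. Their part in the result was not tested. The mean of 12 cardiac genes, relative to the control mean, lay from -0.47 to 0.52 in the controls and was -4.93 on irradiated array 1, while irradiated arrays 2 to 5 lay from -0.55 to 0.24. Within the scan pairs the mean of the cardiac genes differed by -0.20, -0.02, 0.06 and -1.07. For 11 of the 12 genes irradiated array 1 was the lowest of the 9 arrays. Myh6, the cardiac alpha myosin, was 7.33 on irradiated array 1 and between 15.87 and 16.98 on the other 8 arrays. Myh7 was the exception of the list: it was 12.45 on irradiated array 1 and lower, between 10.42 and 10.90, on irradiated arrays 2 to 5. Actn2 and Sln were not well above background on irradiated array 1, and the other 10 genes were well above it on all 9 arrays.

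Fat and skeletal muscle differed between arrays in other ways. The mean of 6 fat genes lay from -0.55 to 0.36 in the controls and was -3.19, -0.07, -1.23, -2.32 and -3.09 on irradiated arrays 1 to 5. Within the scan pairs its difference was -0.43, -1.25, -1.77 and -3.25, so that the pair of control array 4 and irradiated array 5 was again the lowest. Brown fat also makes Cox8b and Cox7a1. Of 6 brown fat genes, 3 were above 0 and 3 below. Among those above 0, Elovl3 (difference 0.005) was well above background on no array, and its direction is not read. Within the scan pairs the mean of the list, Elovl3 included, differed by 0.12, 0.29, -0.59 and -0.94. In the pair of control array 1 and irradiated array 2, Elovl3 was 3.60 and 4.57, so the sign of the mean there is not read. In the pair of control array 2 and irradiated array 3, where the mean was also above 0, Elovl3 was 2.39 and 2.48. Ucp1, the uncoupling protein of brown fat, was 13.18 on control array 1, 12.65 on irradiated array 2 and between 4.61 and 9.87 on the other 7. Control array 1 and irradiated array 2 were the highest of their groups for Cox8b. Cox7a1 and Cox6a2 were instead highest on control array 2 and irradiated array 3, where Ucp1 was 4.61 and 5.53. The brown fat means below 0 within the scan pairs rested mainly on Ucp1. It was 9.53 and 5.19 in the pair of control array 3 and irradiated array 4. In the pair of control array 4 and irradiated array 5 it was 9.87 and 4.87. The 12 skeletal muscle genes were high on control array 3 (mean 3.86) and between -1.71 and -0.91 on all other arrays, while Cox8b, Cox7a1 and Cox6a2 were below the control mean on control array 3. Of the 4 lists, 0 genes passed the test in either direction without a block. In the fit with scan pairs as a random block 5.65% of all genes were higher and 3.8% lower. Adipoq, Cfd, Plin1 and Retn of the fat list and Myh7 of the cardiac list were lower in that fit. With a fixed block, where 1.56% of all genes were lower, 0 fat genes passed (lowest adjusted p 0.083) and Myh7 was lower (adjusted p = 0.0178). Myh7 was also lower without irradiated array 1 (adjusted p = 0.00815), where 0.569% of all genes were lower.

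**Figure D4:**
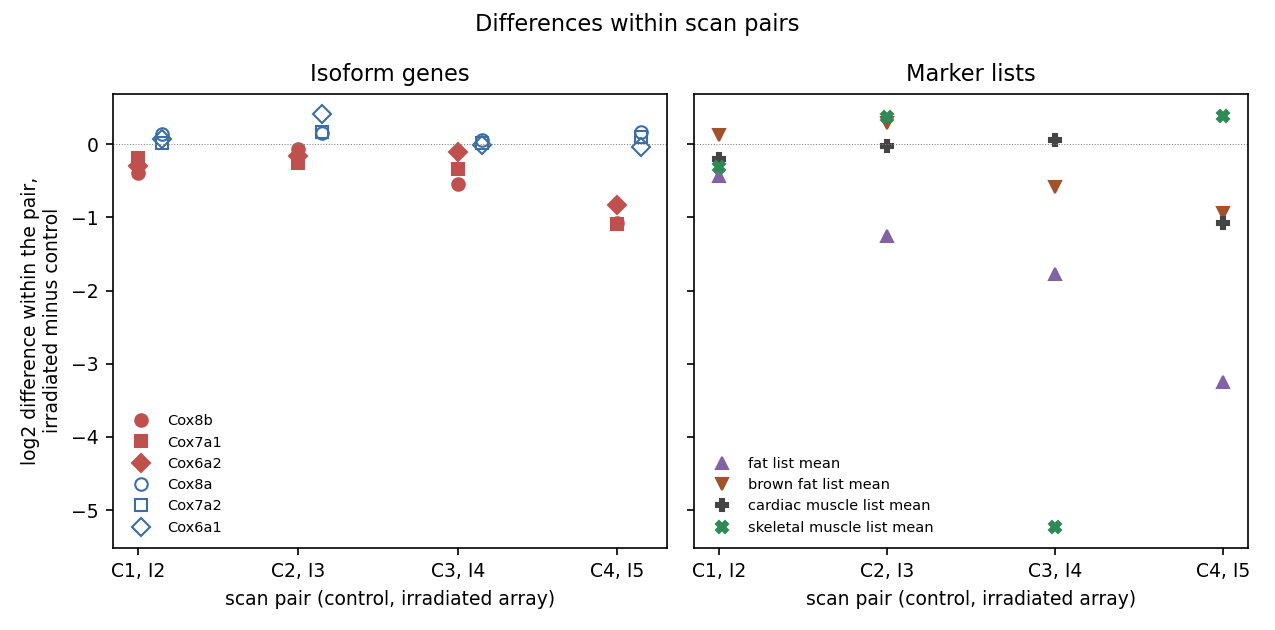
Log2 difference within each of 4 scan pairs (irradiated minus control array) for 6 isoform genes of complex IV (left) and for the means of the fat, brown fat, cardiac muscle and skeletal muscle lists (right). The muscle isoforms are below 0 in each pair and lowest in the pair C4, I5. The fat, brown fat and cardiac lists are also at their lowest there. The skeletal muscle list is at -5.23 in the pair C3, I4 and at its highest (0.38) in C4, I5. In C4, I5 the brown fat mean rests mainly on Ucp1 (log2 intensity 9.87 and 4.87) and the skeletal muscle mean on Myh4 (2.15 and 7.52).

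Where a gene had several probes, they gave the same account. The 94 genes had 127 probes, 25 genes had more than 1, and 0 of the 127 probes passed the test in either direction, where 0.191% of all 39302 probes were higher and 0.142% were lower. The differences of the probes of one gene spanned at most 0.18 (Cox7a2l, 3 probes), and they had opposite signs in 8 of the 25 genes, all with small values.

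Genes that support the system were given by list. Of 38 assembly factors outside the symbol rule, 16 regulators of mitochondrial biogenesis, 14 genes of mitochondrial DNA maintenance, 18 of the citric acid cycle, 78 of the mitochondrial ribosome and 21 of glycolysis, 0 passed the test in either direction. Their median differences were 0.07, -0.09, -0.06, -0.03, 0.05 and 0.10 in this order, beside 0.01 for all genes. Ppargc1a, the coactivator that drives mitochondrial biogenesis, differed by -0.14 (SE 0.29, adjusted p = 0.948), Nrf1 by -0.16 (SE 0.09, adjusted p = 0.657), Gabpa by -0.09 (SE 0.10, adjusted p = 0.862) and Tfam, the packaging factor of mitochondrial DNA, by -0.01 (SE 0.13, adjusted p = 1.0). Of 26 mitochondrially encoded genes, 0 were matched to a probe.

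The genes nearest to the threshold in these lists were those of lactate dehydrogenase, the enzyme that links glycolysis to lactate. Ldhb, its heart-type subunit, was 15.21, 15.88, 15.25 and 15.54 on the control arrays and 14.99, 14.64, 14.71, 14.52 and 14.90 on the irradiated arrays. Ldha, its muscle-type subunit, was 16.43, 16.44, 16.16 and 16.37 on the control arrays and 16.82, 16.79, 16.76, 16.52 and 16.71 on the irradiated arrays. The groups did not overlap for either gene, and the difference was -0.72 for Ldhb (SE 0.15, adjusted p = 0.0941) and 0.37 for Ldha (SE 0.09, adjusted p = 0.15). With scan pairs as a fixed block both passed, Ldhb at -0.78 (adjusted p = 0.0423) and Ldha at 0.35 (adjusted p = 0.0368). So did Idh2 of the citric acid cycle and 1 gene of the mitochondrial ribosome, in a fit where 2.28% of all genes were higher and 1.56% lower. In the fit with a random block, where 5.65% of all genes were higher and 3.8% lower, 2 of the 21 genes of the glycolysis list were higher (Ldha and Pgam1) and 2 were lower (Ldhb and Eno3), 3 of the 78 of the mitochondrial ribosome were higher, and Idh2 of the citric acid cycle, Polg2 of mitochondrial DNA maintenance, and Ppara and Prkaa2 of the biogenesis regulators were lower.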

How the data were processed

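The authors deposited, for each of 9 arrays, Agilent Feature Extraction intensity values (software version and genome build not given in the sources used here): the background-subtracted processed signal, the median spot and local background intensity, and marks of 0 or 1 per spot for outliers, saturation and signal well above background. They also deposited a table of quantile-normalized intensity values. Here, outlier spots were dropped. A probe was kept (39302 of 39429) if 4 or more of the 9 arrays had it above 1.4 times the background around the spot, log2 processed signals were quantile normalized, and spots of a probe were averaged. Probes were named by accession through a RefSeq table (GRCm38.p6), which named 26055 of them, and the brightest probe stood for a gene. Groups were compared with limma 3.58.1 (R 4.3.3) with an intensity trend, with Benjamini-Hochberg adjustment over all probes and a threshold of 0.05. The fit was tried on simulated data in which arrays were drawn independently, so the likeness within scan pairs was not part of that trial. Intervals are at 95%. Isoform pairs were compared by exact permutation over all divisions of the arrays (Python 3.11.15). Members, lists and tests were chosen with earlier results of these data known.

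The genes named were by rule the isoform pairs and testis isoforms of complex IV, core subunits, the brightest and the most variable member of each complex, members past the threshold and those without overlap. Other members, given as the ends of a range or singled out, were named after their values were seen. Alternatives were normexp (offset 50), 75th percentile scaling, the background filter on all 9 arrays or none, the authors' table, each array left out, replicate and scan pair blocks, no intensity trend and the mean of a gene's probes. Same-numbered arrays did not deviate together (correlation across probes from -0.167 to 0.0622), whereas arrays of a scan pair did (0.201 to 0.455). The number of arrays limits the precision. All 94 members enter the counts and medians, and separate values are printed for a part of them.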

Additional observations from a re-analysis of the deposited data

Results flagged for a closer look

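In 2 of 76 groups of arrays examined (2.63%), 1 array lay far from the rest on Dixon's gap criterion, which by chance marks about 1 group in 20. Cox8c was 5.10 (log2 intensity) on irradiated array 1 and between 2.14 and 2.58 on the other irradiated arrays, with its probe not well above background on any of them. The median of the complex III genes relative to the control mean was 0.0324 on irradiated array 3 and between -0.06 and -0.03 on the other irradiated arrays.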

How the results depend on the processing

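The counts of members past the threshold stayed at 0 higher and 0 lower in all alternatives run, and the lowest adjusted p of a member was 0.0618, with scan pairs as a random block. The median difference of the members was between -0.01 and 0.04 when 1 array was left out, 0.03 with scaling to the 75th percentile and 0.01 in the authors' table. With the replicate block, in which arrays of the same number are paired, it was 0.03 with 0 members past the threshold. The numbers were not used as pairs, since same-numbered arrays did not deviate together. The median of complex III, -0.0058 in the main fit, was 0.0023 with normexp and 0.0143 with 75th percentile scaling. For the 31 named genes, 506 of 556 values kept the sign, 50 changed it and no call changed, and 18 genes kept their sign throughout. The change of Ndufa4l2 minus Ndufa4 was between -0.11 and 0.19 with 1 array left out. That of Cox4i2 minus Cox4i1 also depended on single arrays. The differences of Cox4i2 and Cox4i1 were 0.09 and 0.06 without control array 4, and 0.14 and -0.07 without irradiated array 1. Without irradiated array 1, the differences of Cox8b, Cox7a1 and Cox6a2 were closer to 0, as given above. The cause of these changes was not tested. The number of arrays, the pooling of mice and the dose, region and time, which the labels do not assign to arrays, limit these comparisons, and genes near background, Cox7b2 and Cox8c, allow no statement on direction.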
